A study of Mus musculus with 23 samples.

Results

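C1qa, C1qb and C1qc, the genes of the 3 chains of complement C1q, and C3, the gene of the third complement component, were followed in the left lungs of 23 mice. Each gene was found by its name on a NanoString nCounter myeloid panel, on which barcoded probes bound to RNA are counted without amplification, and the members are 4 of its 754 genes. Dust lungs came from 6 Fat-1 mice (3 males, 3 females) and 7 wild-type (WT) mice (3 males, 4 females) that received 14 instillations of organic dust extract. Saline lungs came from 5 Fat-1 mice (3 males, 2 females) and 5 WT mice (3 males, 2 females) that received as many instillations of PBS. These groups follow the extract code, from which other labels differ for 4 lungs. Every lung, saline included, had been lavaged before the left lobe was taken, so cells that the lavage removed are missing from all groups. Fat-1 mice carry a desaturase gene of Caenorhabditis elegans that makes omega-3 from omega-6 fatty acids. The sources used here do not give the promoter of that transgene, the strain or the ages. RNA extraction took place on day 2 for 5 dust and 6 saline lungs and on day 1 for 8 dust and 4 saline lungs. A lung is named by its group, its number and that day. Apart from 4 lungs, the lungs of day 2 were read on 1 nCounter cartridge and the lungs of day 1 on another. Day and cartridge are thus largely confounded.

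C1q starts the classical pathway of complement. Its recognition part is built from the A, B and C chains, binds antibody complexes, pentraxins and dying cells, and activates the proteases C1r and C1s, which lead to cleavage of C4, C2 and then C3. C3 is where the classical, lectin and alternative pathways meet: its larger fragment coats particles for uptake through integrin receptors, and the smaller one, C3a, signals through its own receptor. Most complement in blood is made by the liver, but C1q is made mainly by macrophages and dendritic cells, and C3 in the lung is also made by epithelial cells and macrophages.

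C1qb, C1qc and C1qa lie next to each other on chromosome 4 of the RefSeq mouse annotation (GRCm38.p6), with no other annotated gene between them, and C3 lies on chromosome 17. The 250 bases before the RefSeq start of C1qb (chr4:136886201-136886450, minus strand), C1qc (chr4:136892915-136893164, minus strand) and C3 (chr17:57228137-57228386, minus strand) are shown because each of these genes was higher in dust lungs and 2 of them are neighbours. They are written 5′ to 3′ along the gene, with capitals at every match to 4 motifs searched on both strands.
C1qb: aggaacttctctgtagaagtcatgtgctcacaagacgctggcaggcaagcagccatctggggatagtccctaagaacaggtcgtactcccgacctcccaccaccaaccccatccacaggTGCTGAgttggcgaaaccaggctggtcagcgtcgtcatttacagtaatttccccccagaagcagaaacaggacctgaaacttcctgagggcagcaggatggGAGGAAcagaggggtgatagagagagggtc
C1qc: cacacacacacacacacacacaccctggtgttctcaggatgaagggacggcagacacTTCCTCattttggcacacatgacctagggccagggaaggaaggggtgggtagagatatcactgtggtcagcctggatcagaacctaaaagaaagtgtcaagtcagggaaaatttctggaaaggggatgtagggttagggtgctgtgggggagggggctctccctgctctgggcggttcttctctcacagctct
C3: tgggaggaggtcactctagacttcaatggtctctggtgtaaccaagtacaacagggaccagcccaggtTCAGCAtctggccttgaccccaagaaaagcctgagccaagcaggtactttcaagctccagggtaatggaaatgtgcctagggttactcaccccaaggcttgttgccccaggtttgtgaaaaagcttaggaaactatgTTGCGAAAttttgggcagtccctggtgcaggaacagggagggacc
The motifs were a TATA sequence (TATAAA), the core of sites of the myeloid factor PU.1 (GAGGAA), the core of Maf sites (TGCTGA) and a C/EBP site (TTGCGNAA), and no match overlaps another. C1qb held GAGGAA, which begins 30 bases before the start, and TGCTGA, and C1qc held GAGGAA on the other strand. C3 held TGCTGA on the other strand and a C/EBP match, TTGCGAAA, 45 to 38 bases before the start. None of the 3 held TATAAA in this window. Among 32851 promoters of this length GAGGAA was found in 23.3%, TGCTGA in 16.1%, TATAAA in 12.4% and TTGCGNAA in 0.67%. No promoter of C1qa was matched. These matches describe letters and are not evidence of binding.

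Values are normalized counts, the probe counts of a lung multiplied by a scale factor for that lung, with a floor of 20. Counts recovered from the steps of the values came to 110453 to 812429 per lung over all genes. For the members they ran from 57 to 19507 per lung, none was at the floor in any lung, and counting error alone is 13.2% of the lowest C1q value and 3.10% of the lowest C3 value. For 4 lungs the extract code, which set the groups here, and the other labels name different groups. Fat-1 female saline lung 1 of day 1 and Fat-1 male dust lung 1 of day 1 are WT by title and characteristics. Fat-1 male saline lung 2 of day 2 is WT and female by both. WT male saline lung 2 of day 2 is WT female dust by its title, while its characteristics match the code. Which label is right is not known here. Fat-1 female dust lung 2 of day 1 stood apart in its C1qb to C1qa ratio, and WT female saline lung 1 of day 2 in its positive control probes, whose geometric mean was 1904 counts against 187 to 836 in the other lungs. Scanner messages on saturation accompany Fat-1 male dust lung 1 of day 2 and WT male saline lung 1 of day 2. The epithelial genes Lamp3 and Cdh1 were measured in every lung, with summed levels of 8120 to 12950 in dust lungs and 7049 to 11532 in saline lungs. Their changes with exposure are given with the other cell markers.

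The first comparison asked whether repeated dust changed the members over both genotypes and sexes. All 3 C1q subunit genes were higher in dust, C1qb by the largest factor of the 4 members. C1qa ranged from 378 to 1546 normalized counts in dust lungs (median 1092, n = 13) and from 170 to 365 in saline lungs (median 264, n = 10). C1qb ranged from 539 to 5127 in dust lungs (median 1999) and from 294 to 502 in saline lungs (median 424). C1qc ranged from 428 to 3489 in dust lungs (median 1248) and from 222 to 420 in saline lungs (median 317). Every dust lung was above the highest saline lung for each of these 3 genes, with a narrow gap at WT female dust lung 2 of day 2, the lowest dust lung for each. Of the 711 genes tested, 25 (3.52%) separated the groups in that way.

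The means were 1012 ± 361 in dust and 271 ± 56.4 in saline for C1qa, 2164 ± 1179 and 412 ± 76.6 for C1qb, and 1416 ± 762 and 329 ± 60.1 for C1qc (SD, n = 13 and 10). In limma's test, adjusted over 711 genes, the log2 fold change of dust over saline was 1.79 for C1qa (SE 0.22, 95% interval 1.33 to 2.26, adjusted p = 1.29e-05). It was 2.20 for C1qb (SE 0.29, interval 1.58 to 2.81, adjusted p = 2.04e-05) and 1.94 for C1qc (SE 0.26, interval 1.39 to 2.50, adjusted p = 2.39e-05). In fold terms these are 3.47, 4.58 and 3.85. Among all genes tested 308 (43.3%) were called higher in dust, that is with an adjusted p under 0.05, and 71 (9.99%) lower, 53.3% in all, so a call alone sets the members apart little on this panel. In RNA of whole lung tissue more cells of a type and more RNA per cell cannot be told apart.

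C3 rose as well, by a smaller factor than the C1q genes. It ranged from 5043 to 27247 normalized counts in dust lungs (median 11900) and from 3072 to 6919 in saline lungs (median 4578). The means were 12608 ± 5579 in dust and 4610 ± 1134 in saline (SD, n = 13 and 10), a log2 fold change of 1.38 (SE 0.20, interval 0.95 to 1.81, limma adjusted p = 4.96e-05). The groups overlapped: 12 of 13 dust lungs were above the highest saline lung, WT female saline lung 1 of day 1, and WT female dust lung 2 of day 2 at 5043 was below it. Readings of different genes depend on their probes, so only their changes between groups are compared.

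**Figure D1:**
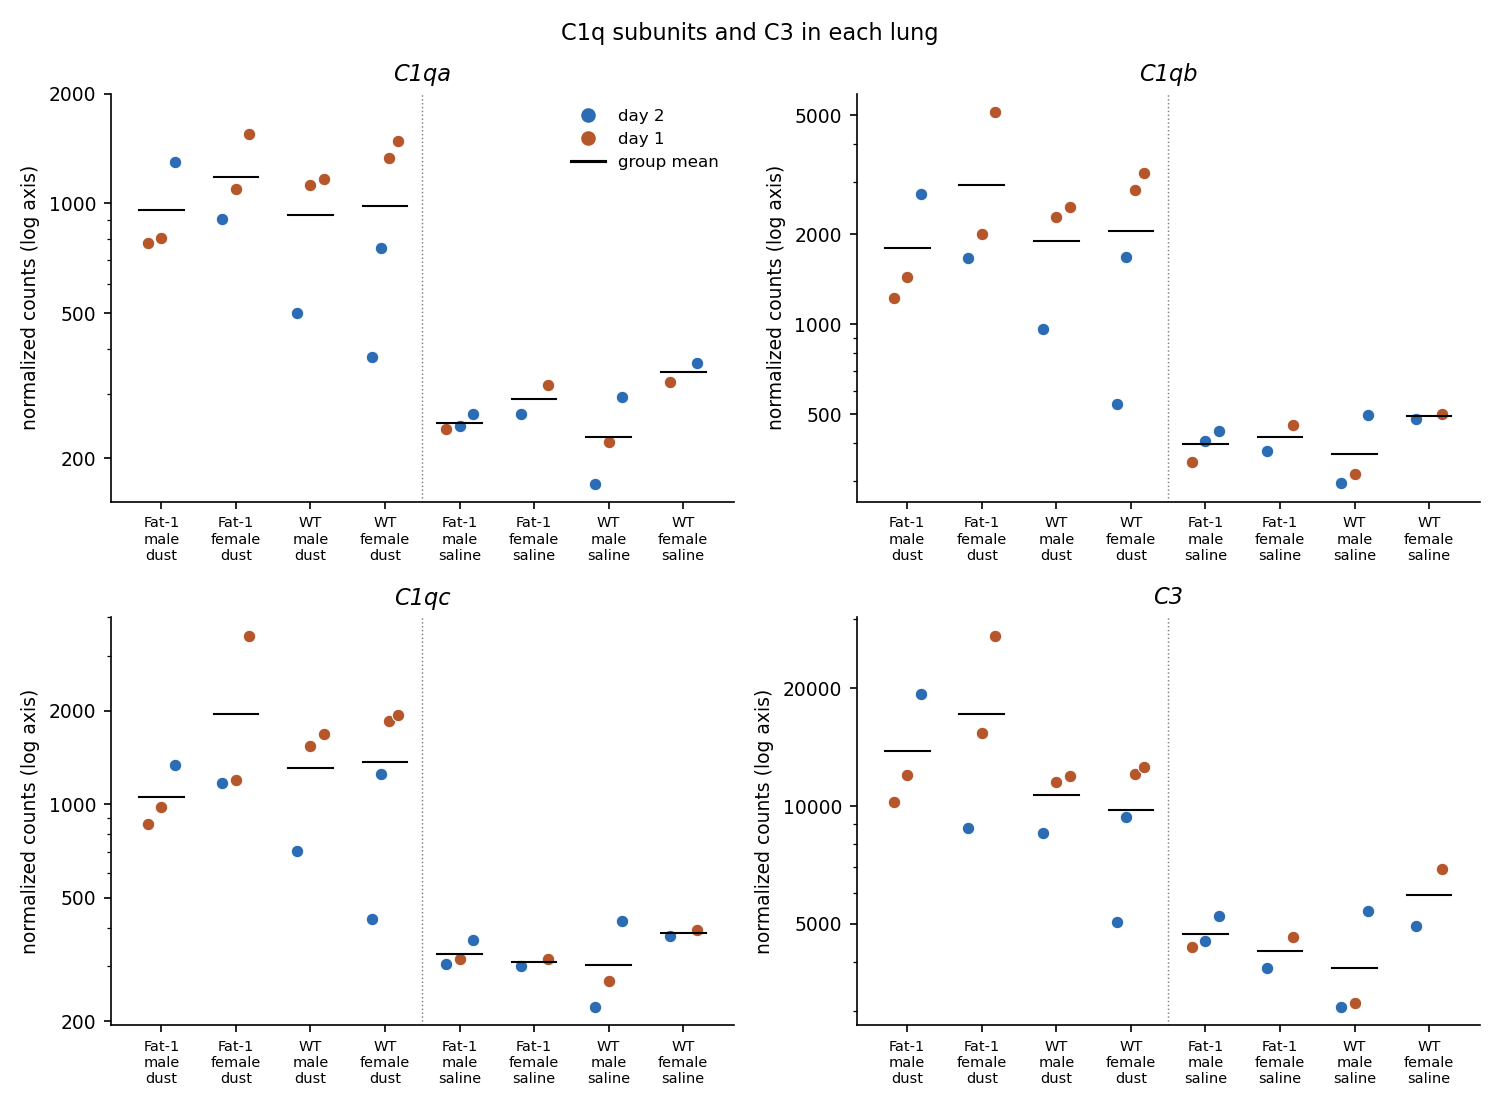
Normalized counts (log axis) of C1qa, C1qb, C1qc and C3 in each of 23 lungs, by genotype, sex and exposure, dust left and saline right of the dotted line; points are lungs coloured by extraction day and bars are group means. Dust lungs lie above saline lungs for the C1q genes. WT female dust lung 2 of day 2 is the lowest dust lung in every panel and for C3 lies among the saline lungs. Day 2 lungs of WT dust lie below those of day 1.

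The median log2 fold change of all genes was 0.26, and it was −0.13 after median centring of each lung and 0.11 on a scale set by the housekeeping genes. On the median-centred scale 202 genes were higher and 244 lower, and on the housekeeping scale 250 were higher and 117 lower. The members rose on each of these scales: after median centring the log2 fold changes were 1.40 for C1qa, 1.81 for C1qb, 1.55 for C1qc and 0.99 for C3 (highest limma adjusted p = 7.97e-05). Without the 4 lungs with conflicting labels they were 1.80, 2.24, 1.90 and 1.39. When Fat-1 female dust lung 2 of day 1 and WT female saline lung 1 of day 2 were both left out they were 1.76, 2.06, 1.81 and 1.22, and without the 2 lungs with saturation messages 1.78, 2.17, 1.96 and 1.38.

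The order of the 8 group means put the 4 dust groups above the 4 saline groups for every member. Fat-1 female dust lungs came first, at 1181 ± 329 for C1qa, 2931 ± 1909 for C1qb, 1953 ± 1331 for C1qc and 17133 ± 9361 for C3 (SD, n = 3). WT male saline lungs came last, at 229 ± 62.3, 369 ± 112, 304 ± 103 and 3868 ± 1321 (SD, n = 3). Within the dust groups no neighbours in the order were further apart than their SDs. At the step between the lowest dust group and the highest saline group the means were further apart than the SDs for C1qa, C1qb and C1qc but not for C3, where WT female dust lungs had 9756 ± 3441 (n = 4) and WT female saline lungs 5933 ± 1395 (n = 2).

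The design also asked whether Fat-1 mice respond differently. In Fat-1 lungs the log2 fold changes of dust over saline were 1.94 for C1qa, 2.36 for C1qb, 2.06 for C1qc and 1.68 for C3 (limma adjusted p = 0.00104, 0.00104, 0.00120 and 0.00104). In WT lungs they were 1.64, 2.03, 1.83 and 1.08 (limma adjusted p = 0.00128, 0.00168, 0.00168 and 0.00880). All 4 members were thus called in each genotype, where 32.2% of genes were called higher in Fat-1 lungs and 30.7% in WT lungs. The difference of the responses, Fat-1 minus WT, did not pass for any member (limma adjusted p = 0.999 for each), and 0 of 711 genes (0%) passed there in limma's test, with 21 at an unadjusted p under 0.05. Its 95% interval was −0.63 to 1.23 for C1qa, −0.90 to 1.55 for C1qb, −0.88 to 1.33 for C1qc and −0.24 to 1.46 for C3.

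For C3, Fat-1 dust lungs had 8774 and 19282 normalized counts on day 2 and 10212, 11989, 15378 and 27247 on day 1. WT dust lungs had 5043, 8556 and 9365 on day 2 and 11544, 11900, 12068 and 12549 on day 1. The ranges overlapped, the Fat-1 mean was 15480 ± 6897 (n = 6) and the WT mean 10146 ± 2698 (SD, n = 7). The log2 difference of Fat-1 over WT after dust was 0.54 for C3 (SE 0.26, interval −0.02 to 1.10, limma adjusted p = 0.979), and 0.34 when Fat-1 female dust lung 2 of day 1 and WT female saline lung 1 of day 2 were both left out. For C1qa, C1qb and C1qc it was 0.26, 0.27 and 0.15 (limma adjusted p = 0.979, 0.979 and 0.980), and −0.30, −0.47 and −0.54 when lungs that deviate from the fit were given less weight, with C3 then at 0.20 (limma adjusted p = 0.412). None of the 711 genes (0%) was called in limma's test of Fat-1 over WT after dust, with 22 at an unadjusted p under 0.05, and with those weights 31 were called higher and 66 lower. After saline the values of Fat-1 over WT lay between −0.08 and −0.04 for the 4 members (limma adjusted p = 1.00 for each), with 0 genes called and 10 at an unadjusted p under 0.05.

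In males the log2 fold changes of dust over saline were 1.93 for C1qa, 2.19 for C1qb, 1.86 for C1qc and 1.50 for C3 (highest limma adjusted p = 8.60e-04). In females they were 1.66, 2.20, 2.03 and 1.26 (highest limma adjusted p = 0.00786). All 4 were called in each sex, where 33.9% of genes were called higher in males and 25.9% in females. The male minus female differences were 0.27, −0.01, −0.18 and 0.24, with 95% intervals of −0.66 to 1.20, −1.24 to 1.22, −1.28 to 0.93 and −0.61 to 1.09. None of the 711 genes (0%) was called there in limma's test, with 14 at an unadjusted p under 0.05. Without the 4 lungs with conflicting labels the C3 response in females was 1.32 with a limma adjusted p of 0.0548.

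**Figure D2:**
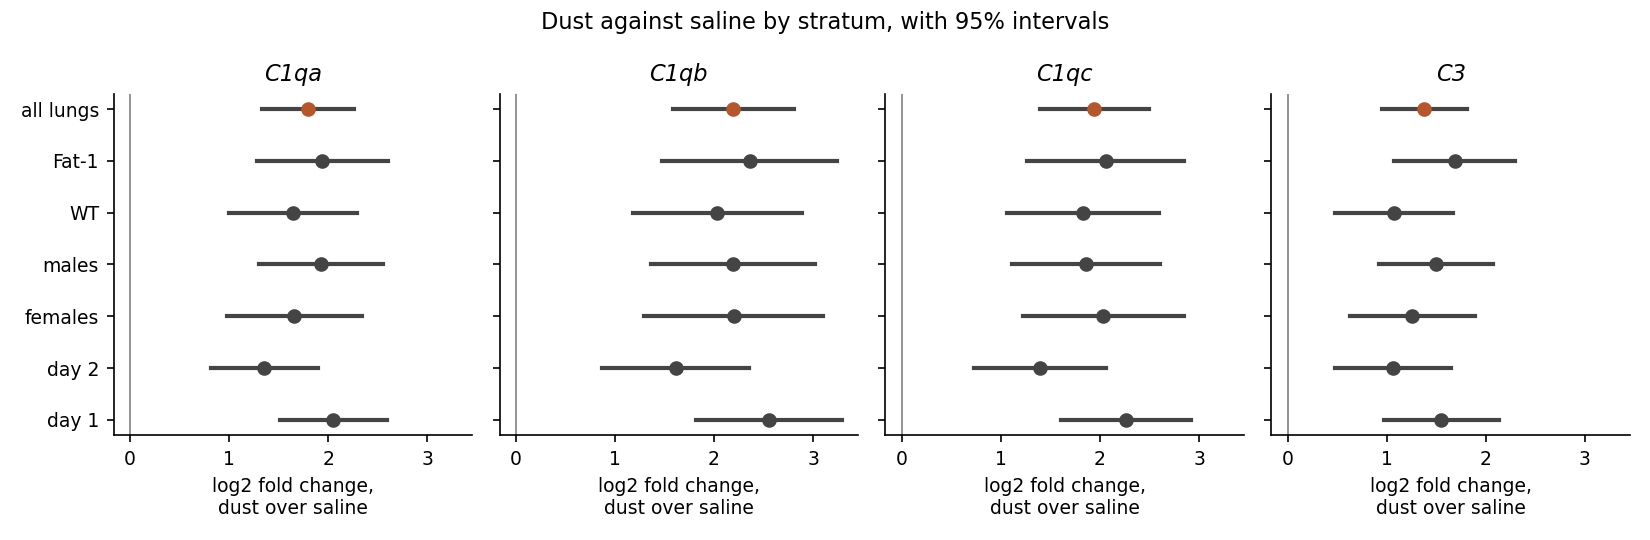
Log2 fold change of dust over saline (x axis) for each member over all lungs and in each genotype, sex and extraction day (y axis); points are limma estimates and lines their 95% intervals. Every interval lies above 0, and the day 2 points lie left of the day 1 points for each member.

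Within each extraction day the members were again higher in dust. On day 2 (5 dust, 6 saline lungs) the log2 fold changes were 1.36 for C1qa, 1.61 for C1qb, 1.39 for C1qc and 1.06 for C3 (limma adjusted p = 0.00285, 0.00639, 0.00830 and 0.0184). On day 1 (8 dust, 4 saline lungs) they were 2.05, 2.55, 2.26 and 1.55 (limma adjusted p = 3.18e-06, 8.72e-06, 1.06e-05 and 1.10e-04). On day 2 12.8% of genes were called higher and on day 1 41.6%, so the 4 members were among a smaller share of genes on day 2. The day 2 calls leaned on Fat-1 male dust lung 1 of day 2, one of the lungs with a saturation message and the highest dust lung of that day for every member. Without it the day 2 values were 1.01 for C1qa, 1.20 for C1qb (limma adjusted p = 0.0523), 1.14 for C1qc (adjusted p = 0.0726) and 0.73 for C3 (adjusted p = 0.147). C3 on day 2 also missed the threshold without Fat-1 female saline lung 1 of day 2 (0.95, adjusted p = 0.0589).

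The dust lungs of day 2 had lower values than those of day 1. Because day and cartridge largely coincide, this is mostly a difference between cartridges as well. Values with the cartridge as a block are given in the closing section. The log2 difference of day 2 over day 1 in dust lungs was −0.71 for C1qa (SE 0.24, limma adjusted p = 0.0505), −0.85 for C1qb (SE 0.33, adjusted p = 0.0783), −0.81 for C1qc (SE 0.30, adjusted p = 0.0652) and −0.52 for C3 (SE 0.26, adjusted p = 0.155). None passed, where 94 genes (13.2%) were called lower, a count that ran from 11 to 209 with 1 lung left out and from 11 to 251 over the other settings. Without Fat-1 male dust lung 1 of day 2 the values were −1.04, −1.23, −1.04 and −0.83, all called (limma adjusted p = 0.00152, 0.00602, 0.0160 and 0.0145). C1qa was also called without Fat-1 female dust lung 1, Fat-1 male dust lung 1 or Fat-1 male dust lung 2 of day 1 (adjusted p = 0.0489, 0.0338 and 0.0331), as was C1qc (adjusted p = 0.0497, 0.0440 and 0.0354), and C1qb without the last (adjusted p = 0.0400). In saline lungs the same difference was −0.02, 0.09, 0.06 and −0.03, with a limma adjusted p of 1.00 for each member. The difference of the dust responses, day 2 minus day 1, was −0.70 for C1qa, −0.94 for C1qb, −0.87 for C1qc and −0.49 for C3 (limma adjusted p = 0.261, 0.263, 0.257 and 0.446), and 12 genes (1.69%) were called lower there, 4 to 133 with 1 lung left out and 0 to 122 over the other settings. Its 95% intervals were −1.46 to 0.07, −1.98 to 0.10, −1.81 to 0.07 and −1.32 to 0.34. Without Fat-1 male dust lung 1 of day 2 it was called for C1qa (−1.04, limma adjusted p = 0.0261) and C1qb (−1.35, adjusted p = 0.0432).

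The split by day was seen in WT lungs. WT dust lungs had 539, 967 and 1681 normalized counts of C1qb on day 2 and 2283, 2461, 2811 and 3201 on day 1. Every WT dust lung of day 2 was below every WT dust lung of day 1, for C1qb and for the other 3 members. How many of all genes separate these 3 and 4 lungs in that way was not counted, so this does not set the members apart. Over all dust lungs 94 of 711 genes (13.2%) were called lower on day 2. Fat-1 dust lungs had 1668 and 2733 on day 2 and 1223, 1440, 1999 and 5127 on day 1, and their days overlapped for all 4 members. Whether the genotypes differ in this split was not tested.

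The members did not rise by the same factor. The ratio of C1qb to C1qa was 1.43 to 3.32 in dust lungs (geometric mean 2.00) and 1.33 to 1.80 in saline lungs (1.53). That difference is 0.38 on the log2 scale (SE 0.09), with 10 of 13 dust lungs above the highest saline lung (two-sided permutation test, p = 4.40e-04, adjusted p = 8.80e-04 over the 6 pairs of members). It was 0.30 (permutation adjusted p = 0.00220) when Fat-1 female dust lung 2 of day 1 and WT female saline lung 1 of day 2 were left out. The first of these lungs stood apart in this same ratio, so leaving it out is not an independent check. The ratio of C1qb to C1qc was 1.26 to 2.05 in dust lungs (1.50) and 1.09 to 1.45 in saline lungs (1.25), a log2 difference of 0.26 (SE 0.07, permutation adjusted p = 0.00123). For C1qc to C1qa the ratio was 1.03 to 2.26 in dust lungs (1.33) and 1.00 to 1.43 in saline lungs (1.22), a log2 difference of 0.13 (SE 0.10) that did not pass (permutation adjusted p = 0.252).

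Each C1q subunit rose more than C3. The log2 difference in response was 0.45 for C1qa over C3 (SE 0.12, permutation adjusted p = 0.00194), 0.84 for C1qb over C3 (SE 0.13, adjusted p = 2.40e-04) and 0.58 for C1qc over C3 (SE 0.13, adjusted p = 8.80e-04). All 13 dust lungs had a higher C1qb to C3 ratio, at 0.107 to 0.255, than the highest saline lung, where saline lungs ran from 0.0726 to 0.1005. Among day 2 lungs alone only C1qb over C3 passed (0.62, exact permutation adjusted p = 0.0260), while the other pairs that had passed were at 0.22 to 0.40 (adjusted p = 0.104 to 0.114). Among day 1 lungs alone the 5 pairs passed, at 0.29 to 1.00 (exact permutation adjusted p = 0.0121 to 0.0485). Within WT lungs the 5 pairs passed, and within Fat-1 lungs 2 did, C1qb over C1qa (0.40, exact permutation adjusted p = 0.0390) and C1qb over C3 (0.70, adjusted p = 0.0260). The geometric mean of C1qc over C3 was 0.0927 in Fat-1 dust lungs and 0.1225 in WT dust lungs, and 0.0711 in Fat-1 saline lungs and 0.0732 in WT saline lungs; the difference between genotypes was not tested.

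**Figure D3:**
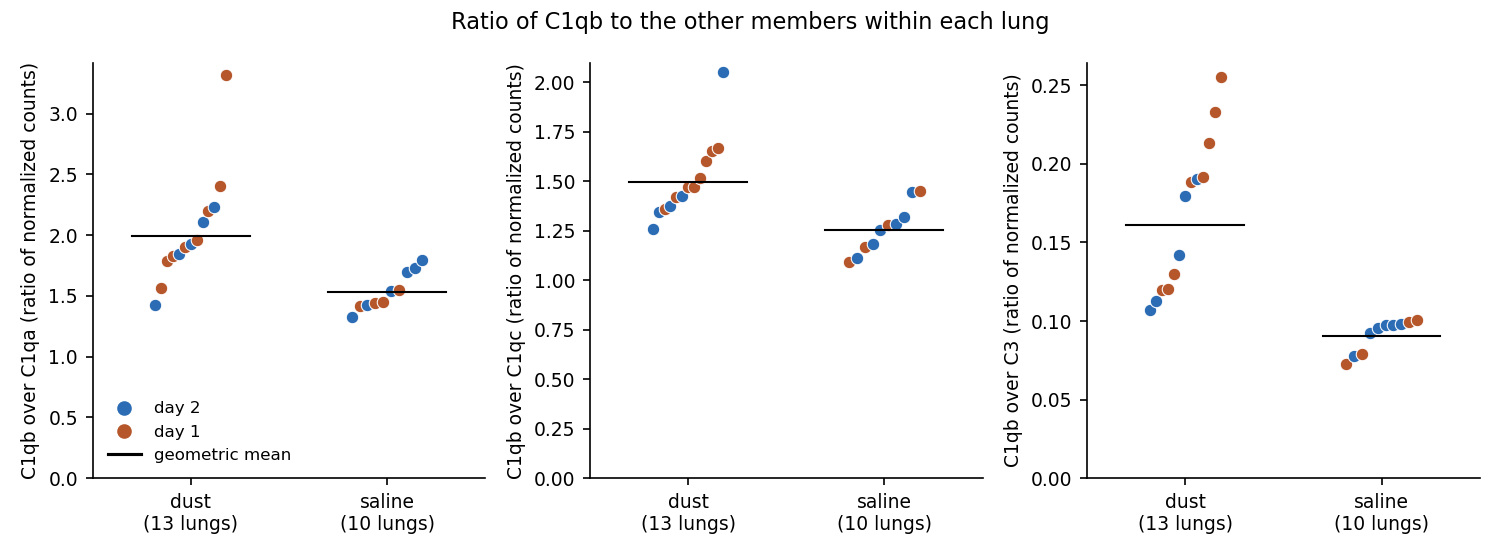
Ratio of C1qb to C1qa, to C1qc and to C3 within each lung (y axes, from 0) in 13 dust and 10 saline lungs; points are lungs coloured by extraction day and bars geometric means. The C1qb to C3 ratios of dust lungs lie above all saline lungs, and the highest C1qb to C1qa ratio, 3.32, is that of Fat-1 female dust lung 2 of day 1.

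Across lungs the C1q subunits varied together. Within the 13 dust lungs C1qb and C1qc had Pearson's r = 0.98 and Spearman's rho = 0.97 on the log2 scale, C1qa and C1qb 0.96 and 0.96, and C1qa and C1qc 0.92 and 0.92 (permutation adjusted p = 4.00e-05 for each r, 12 relations). Without the 2 lungs farthest from the median, r was 0.95, 0.92 and 0.83. Within the 10 saline lungs r was 0.87, 0.89 and 0.84 for these pairs (rho 0.90, 0.90 and 0.84, permutation adjusted p = 0.00108, 5.80e-04 and 0.00316). Among the 8 dust lungs of day 1 r was 0.99, 0.94 and 0.92, and among the 6 saline lungs of day 2 0.92, 0.89 and 0.87 (exact permutation adjusted p of at most 0.0463). After median centring the saline relations of day 2 were at 0.88, 0.86 and 0.84 and missed the threshold (exact permutation adjusted p = 0.0524, 0.0524 and 0.0813). All genes of a lung share its scale factor, and after median centring r in dust lungs was 0.97, 0.94 and 0.88.

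C3 followed the C1q subunits less closely in dust lungs. With C1qa, C1qb and C1qc it had r = 0.83, 0.87 and 0.82 (rho 0.84, 0.82 and 0.73, permutation adjusted p = 5.80e-04, 5.80e-04 and 0.00173). Without the 2 lungs farthest from the median r was 0.69, 0.63 and 0.40. After median centring r was 0.71, 0.79 and 0.71 (permutation adjusted p = 0.00884, 0.00457 and 0.0115) and rho was 0.63, 0.55 and 0.36. Without the 2 farthest lungs the centred r was 0.56, 0.26 and −0.13. The centred r of C1qb and C1qc with C3 thus depended on those lungs, and leaving them out also narrows the range of the C1q gene. Among the 8 dust lungs of day 1 r was 0.58, 0.74 and 0.75 (exact permutation adjusted p = 0.125, 0.0463 and 0.0526), and the median-centred rho was 0.05, 0.12 and 0.05. In saline lungs C3 had r = 0.77, 0.88 and 0.90 with C1qa, C1qb and C1qc (permutation adjusted p = 0.0100, 8.55e-04 and 8.55e-04). These were 0.74, 0.86 and 0.89 after median centring, and 0.75, 0.86 and 0.95 so centred among the 6 saline lungs of day 2. The dust lungs of day 2 and the saline lungs of day 1 are fewer than 6 and were given no value.

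**Figure D4:**
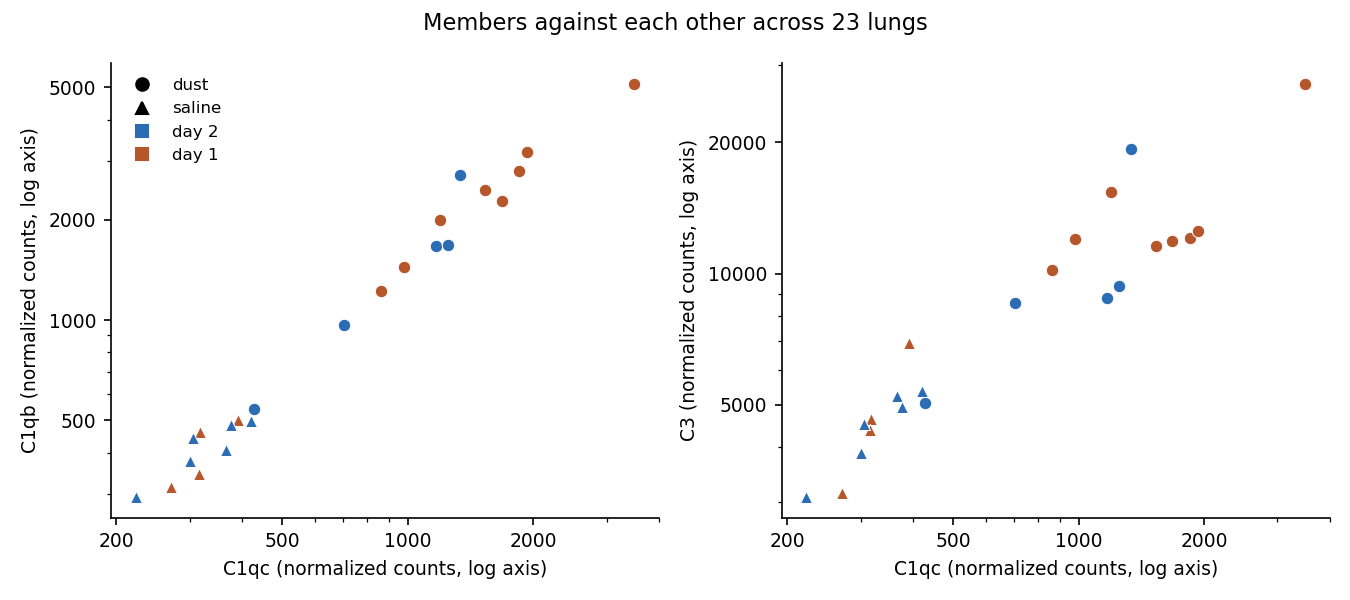
C1qb (left) and C3 (right) against C1qc in each lung, all as normalized counts on log axes, with circles for dust lungs, triangles for saline lungs and colours for extraction days. C1qb follows C1qc over the whole range, while at C1qc between 861 and 1938 in dust lungs C3 runs from 8774 to 19282 without a clear order.

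Of the other complement genes that the panel holds, 7 could be tested, of which 5 rose, 0 fell and 2 did not pass, where 43.3% of all genes were called higher. C3ar1, the receptor of C3a, had 754 ± 473 normalized counts in dust lungs and 117 ± 24.4 in saline lungs (SD, n = 13 and 10), a log2 fold change of 2.39 (SE 0.36, limma adjusted p = 6.14e-05). C5ar1, the receptor of C5a, had 253 ± 146 and 89.3 ± 19.6 and rose by 1.31 on the log2 scale (SE 0.31, limma adjusted p = 0.00185). The integrin chains of the receptors that take up C3-coated particles rose as well: Itgam by 2.09, its partner Itgb2 by 1.44 and Itgax by 1.86 (highest limma adjusted p = 6.14e-05). These receptors are carried by myeloid cells.

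Hc and C4a, the other tested components of the cascade, did not pass. Hc, which encodes C5, had 2135 ± 590 in dust lungs and 1979 ± 352 in saline lungs, a log2 difference of 0.05 (SE 0.15, interval −0.27 to 0.37, limma adjusted p = 0.816). C4a had 1171 ± 296 and 918 ± 239, a log2 difference of 0.34 (SE 0.16, interval −0.01 to 0.68, limma adjusted p = 0.0922). After median centring Hc was at −0.34 and C4a at −0.05, so their directions depend on the scale. C4a is nearly identical to C4b, so its probe may count both and its value is uncertain. Fcnb, which encodes a ficolin of the lectin pathway, was at the floor in every lung, and none of the 10 complement regulators listed is on it. The median log2 fold change of the 7 other complement genes was 1.44, against 0.26 for all genes tested.

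**Figure D5:**
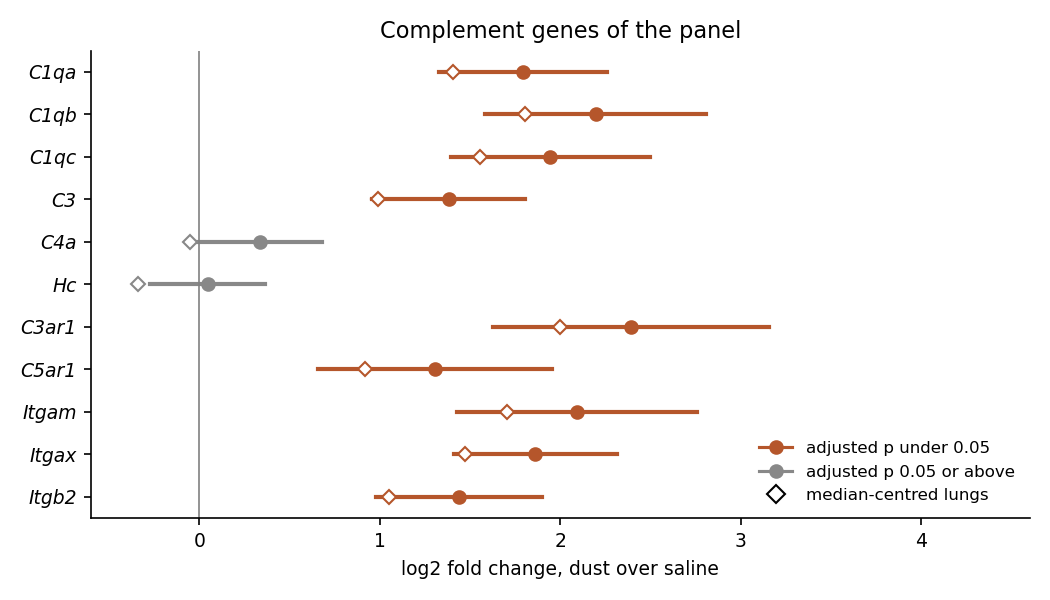
Log2 fold change of dust over saline (x axis) for the 4 members and the 7 other tested complement genes (y axis), with 95% intervals; filled points are deposited values and open diamonds values after median centring of each lung. C4a and Hc cross 0, and the members and the 5 receptor genes do not.

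Genes that work with C1q or C3 were described as lists, whose counts stand beside the 43.3% of all 711 genes that were called higher. The Fc gamma receptors bind the antibody complexes that C1q also recognises, and 4 of 4 rose: Fcgr2b by 2.20, Fcgr3 by 1.85, Fcgr1 by 1.64 and Fcgr4 by 1.20 (highest limma adjusted p = 0.00753). Fcgr2b, the inhibitory one, had 3162 ± 1477 normalized counts in dust lungs and 618 ± 84.2 in saline lungs. Of the proteins reported to bind C1q, the pentraxin Ptx3 rose by 1.34 (adjusted p = 0.00413) but was not called with a common floor (0.28, adjusted p = 0.146), with 2 of 13 dust lungs and 5 of 10 saline lungs at the floor, and the chaperone Calr by 0.51 (adjusted p = 0.0176, and 0.12 with adjusted p = 0.430 after median centring). Of 7 efferocytosis genes 3 rose, Trem2 by 2.54, Tyrobp by 1.39 and Stab1 by 0.41 (0.02 with adjusted p = 0.890 after median centring), and 1 fell, the scavenger receptor Cd36, by 0.72 on the log2 scale (limma adjusted p = 0.00424). The share that rose is near that of all genes. After median centring 2 of the 7 were called higher and 2 lower, Cd36 and the ligand Pros1 (−0.57, adjusted p = 0.00733, and −0.18 with adjusted p = 0.349 as deposited). Mertk, a receptor for dying cells, was at 0.11 (adjusted p = 0.566).

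Among factors known to act on the members' genes, the transcription factor Irf8 rose by 0.47 (adjusted p = 0.00939), and was at 0.08 (adjusted p = 0.571) after median centring. Of 7 tested cytokines and factors known to induce C3, 6 rose and 0 fell, where 43.3% of all genes rose: Il1b by 2.95, Il1a by 2.31, Tnf by 2.28, Il6 by 1.19, Cebpb by 0.86 and Nfkb1 by 0.54 (highest limma adjusted p = 0.00780). With a common floor Il6 was not called (0.14, adjusted p = 0.123), with 3 of 13 dust lungs and 7 of 10 saline lungs at the floor, while Tnf was at 1.38 and Il1a at 1.54, both called (highest adjusted p = 0.0133). Nfkb1 was at 0.15 (adjusted p = 0.346) after median centring. Cebpd was at 0.34 (adjusted p = 0.428).

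Markers of other cells moved with exposure, where 43.3% of all genes were called higher and 9.99% lower. Among 11 markers of monocytes and interstitial macrophages 9 rose, among them Cd68, Adgre1 and Cd14, and their summed level was 4798 to 16806 in dust lungs and 3678 to 5132 in saline lungs, with Aif1 at the floor in 12 of 13 dust lungs and 8 of 10 saline lungs. Of 7 alveolar macrophage genes 5 rose, with sums of 5895 to 39283 in dust lungs and 6386 to 20195 in saline lungs. Chil3 made up much of these sums, with means of 21363 in dust lungs and 8447 in saline lungs. Ear6, among the 5, was at the floor in 3 of 13 dust lungs and 9 of 10 saline lungs. With a common floor Ear6 was at 0 and not called. Of 7 neutrophil genes 4 rose, with sums of 1458 to 40745 in dust lungs and 1482 to 3376 in saline lungs, while Ly6g was at the floor in 9 of 13 dust lungs and all 10 saline lungs and Mpo in 12 and 10. The 5 endothelial genes fell, with sums of 2132 to 8483 in dust lungs and 8017 to 10504 in saline lungs. Of the epithelial genes Lamp3 rose by 0.29 (limma adjusted p = 0.0378) and Cdh1 was at −0.0015 (adjusted p = 0.990). After median centring Lamp3 was at −0.10 (adjusted p = 0.538) and Cdh1 was called lower (−0.39, adjusted p = 0.00622). Of 5 fibroblast genes 3 rose, Fn1, Col3a1 and Col1a2, with sums of 8387 to 22028 in dust lungs and 5759 to 10086 in saline lungs. Of 4 T cell genes 3 rose and 1, Gata3, fell, with sums of 177 to 879 in dust lungs and 148 to 312 in saline lungs, and of 3 B cell and plasma cell genes 2 rose, with sums of 188 to 816 in dust lungs and 224 to 450 in saline lungs. With a common floor these 2, Fcer2a (0.04, limma adjusted p = 0.384) and Irf4 (0.05, adjusted p = 0.508), were not called. Fcer2a was at the floor in all 10 saline lungs and 3 of 13 dust lungs. Of the T cell genes that rose, Icos (0.49, adjusted p = 0.0638) and Cd28 (0.02, adjusted p = 0.509) were not called with that floor either, while Ctla4 was (0.59, adjusted p = 0.0276). After median centring, with 202 of 711 genes higher and 244 lower, 8 of the 11 monocyte and interstitial macrophage genes were called higher and 1 lower. On that scale 3 of the 7 alveolar macrophage genes were higher, 4 of the 7 neutrophil genes higher and 2 lower, and all 5 endothelial genes lower. The fibroblast genes had 3 higher and 2 lower, the T cell genes 2 higher and 1 lower, and the B cell and plasma cell genes 1 higher. The neutrophil genes called lower were Mpo and Camp, and the monocyte gene called lower was Aif1. Camp was at the floor in 11 of 13 dust lungs and 7 of 10 saline lungs. Mpo, Camp and Aif1 were each at 0 and not called with a common floor, so these lower calls do not show a fall. On the deposited scale the median log2 fold change was 1.08 for the monocyte and interstitial macrophage genes, 0.63 for the alveolar macrophage genes, 2.18 for the neutrophil genes, 0.87 for the fibroblast genes and −0.58 for the endothelial genes. Itgax also stands in the list of C3 receptors. The part of these shifts in the rise of the members was not tested.

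After the group means were taken away, the genes most like each member over the 23 lungs were found among the 470 genes above the floor in every lung. For C1qa they included C1qb, C3ar1, Alox5ap and C1qc (r = 0.95 to 0.93). For C1qb they were Cd68, C1qc, Adgre1, C3ar1 and Csf1r (r = 0.98 to 0.96), and for C1qc they were C1qb, Adgre1, Cd68, Ctss and Cd84 (r = 0.97 to 0.94). Cd68 and Adgre1 are macrophage markers, and Csf1r is the receptor of macrophage colony-stimulating factor. C3 had other neighbours: S100a11, H2-Ab1, S100a10, H2-Aa and Arf6 (r = 0.96 to 0.92), of which H2-Ab1 and H2-Aa encode class II antigen presentation molecules. After median centring Arf6 was at 0.52 and the other 4 at 0.78 to 0.93. These likenesses are descriptions over lungs that share scale factors and days.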

How the data were processed

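Total RNA of the left lobe of 23 lungs was measured on a panel of 754 genes. Per the file headers and the values, the deposited signal is probe counts times 1 factor per lung (0.682 to 4.21), with low values set to 20; how the factor was made is not given here. Groups follow the extract code described in the labels' protocols. Tests ran in limma 3.58.1 (R 4.3.3) on log2 of the value plus 1, with 8 group means, or exposure by day with genotype and sex, adjusted by Benjamini-Hochberg over the 711 genes above the floor in at least 1 lung, at a threshold of 0.05. Ratios and correlations used 100000 permutations, or exact enumeration in small groups (scipy 1.17.1). A common floor is 84.3 in every lung. Lungs of a group differed beyond counting noise (chi-square per degree of freedom of at least 4.14). Same-numbered lungs did not deviate together (median correlation −0.01). Named genes were the members, every complement gene of the panel, up to 4 of each other list by smallest p and the 5 genes most like each member; the fifth and later genes of a list, and low markers, were named after their values were seen. Some genes that this rule takes are not reported here. Members and lists were chosen with earlier results of these data known. The fit was tested on simulated data. Alternatives changed the scale, floor, pseudocount, filter, groups, blocks, weights and lungs.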

Additional observations from a re-analysis of the deposited data

Results flagged for a closer look

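In 42 tests for a value far from the others in groups of 4 to 10 lungs, 4 such values were found, where chance gives about 1 in 20. The tests took the members and their ratios in groups that share lungs, and several of these values came from the same lung. They are therefore not independent, and the 4 cannot be weighed against that rate. In Fat-1 female dust lung 2 of day 1 C1qc, at 3488.92 normalized counts, lay far above the other Fat-1 dust lungs, at 861 to 1333. In the same lung the C1qb to C1qa ratio was 3.3165 and the C1qc to C1qa ratio 2.2569, both far above the other Fat-1 dust lungs. In Fat-1 male saline lung 1 of day 2 C1qc, at 365.78, lay above the other Fat-1 saline lungs, at 300.5 to 318.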

How the results depend on the processing

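The rise of C1qa, C1qb, C1qc and C3 in dust was called in every alternative run, with log2 fold changes of 1.40 to 1.98, 1.81 to 2.33, 1.55 to 2.07 and 0.99 to 1.48. Of 2312 alternative values of all results on the members, 2200 kept direction and call, 31 passed where the reported value had not, 17 no longer passed and 64 changed sign. None of the 64 was called, with a lowest limma adjusted p of 0.0710, and the cause of these changes was not tested. Median centring gave 0.0088 for C1qb male minus female. C1qa of day 2 against day 1 in dust was called at −0.65 on the housekeeping scale, −0.69 with a pseudocount of 20, −0.71 among genes above the floor in every lung, where fewer genes were tested, and −0.73 with groups from the characteristics. The last also gave 0.0044 for C1qc of Fat-1 against WT after saline. Without the 4 lungs with conflicting labels C3 in females (1.32) and C1qc (1.29) and C3 (0.97) on day 2 were not called, with fewer lungs, and day 2 against day 1 in saline was 0.13 for C1qa and 0.013 for C3. With the cartridge as a block, day 2 against day 1 in dust was called for C1qa (−1.02), C1qb (−1.26) and C1qc (−1.15), and in saline C1qb was at −0.52 and C1qc at −0.45. Array weights turned Fat-1 minus WT for C1qa, C1qb and C1qc (−0.36, −0.53 and −0.57), Fat-1 against WT after dust (−0.30, −0.47 and −0.54) and after saline (0.057, 0.060 and 0.023, and 0.020 for C3), C1qc male minus female (0.0070) and C3 of day 2 against day 1 in saline (0.030). They also gave calls for C1qa day 2 minus day 1 (−0.79) and for day 2 against day 1 in dust in the 4 members (−0.83, −0.83, −0.68 and −0.47). The replicate numbers are not shared sources; with the replicate block C1qb male minus female was 0.0045, day 2 against day 1 was −0.81 for C1qa in dust (called), and 0.089 for C1qa and 0.042 for C3 in saline, and no other call on the members changed. Without Fat-1 female dust lung 2 and WT female saline lung 1, of days 1 and 2, C1qc had −0.019 for Fat-1 minus WT, −0.11 for Fat-1 against WT after dust and 0.098 for male minus female, and C1qb 0.25 for the last. Leaving out the lungs with saturation messages was chosen after seeing the data. So were leaving out WT female dust lung 2 of day 2 and taking the ratios within each genotype. The ratios within each day were planned. Without the 2 lungs with saturation messages, Fat-1 against WT after saline was 0.056, 0.067, 0.052 and 0.065 for C1qa, C1qb, C1qc and C3. Day 2 was then not called for C1qb (1.29), C1qc (1.24) and C3 (0.83), day 2 minus day 1 was called for C1qa (−0.98), and day 2 against day 1 in dust for the 4 members (−1.03, −1.22, −1.03 and −0.82), with C1qc at −0.012 in saline. Without WT female dust lung 2 of day 2, C1qc had −0.016 for Fat-1 minus WT and −0.094 for Fat-1 against WT after dust. Among day 2 lungs the ratios C1qb over C1qa (0.26), C1qb over C1qc (0.22), C1qa over C3 (0.36) and C1qc over C3 (0.40) did not pass, nor among Fat-1 lungs did C1qb over C1qc (0.32), C1qa over C3 (0.30) and C1qc over C3 (0.38). Leaving out each lung in turn, values ranged as follows. Fat-1 against WT after saline: C1qa −0.14 to 0.056, C1qb −0.12 to 0.067, C1qc −0.18 to 0.052 and C3 −0.19 to 0.065. Day 2 against day 1 in dust ranged for C1qa from −1.04 to −0.47, for C1qb from −1.23 to −0.51, for C1qc from −1.04 to −0.51 and for C3 from −0.83 to −0.32. In saline it ranged for C1qa from −0.11 to 0.077, for C1qc from −0.034 to 0.15 and for C3 from −0.17 to 0.21. Day 2 ranged for C1qb from 1.20 to 1.93, for C1qc from 1.14 to 1.67 and for C3 from 0.73 to 1.25. Day 2 minus day 1 ranged for C1qa from −1.04 to −0.47 and for C1qb from −1.35 to −0.62. Male minus female ranged for C1qb from −0.28 to 0.24 and for C1qc from −0.42 to 0.084. C1qc of Fat-1 minus WT ranged from −0.033 to 0.36 and after dust from −0.11 to 0.28. Counts of genes moved by over 1.5 times: in dust against saline 202 to 365 genes were higher and 37 to 244 lower over the settings, 9 to 155 higher on day 2, 69 to 299 higher in Fat-1 lungs, 126 to 322 in WT lungs, 43 to 274 in females, 156 to 347 in males and 196 to 312 on day 1. Lower genes numbered 11 to 251 for day 2 against day 1 in dust and 0 to 133 for day 2 minus day 1. The planned count model was not run, because the floor hides the lowest counts, on which the recovery of whole counts is checked. Counting error is 13.2% for the lowest recovered C1q count, 57 for C1qa in Fat-1 male saline lung 1 of day 1. Differences of that size were not resolved in that lung, and the error is smaller where counts are higher.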
